A study of Rattus norvegicus with 6 samples.

Results

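The aminoacyl-tRNA synthetases were examined by array in LN4D6, a line of rat mammary tumour cells, after transfection with CREB3L1. Members were taken from a list of 38 synthetase and synthetase-scaffold genes, written with their older and current symbols. A gene was measured if at least 1 probe set was annotated with its symbol alone. This held for 34 of the 38 genes, through 53 probe sets, out of 14217 genes measured in the same way on the array. Of the 34, 19 encode cytosolic enzymes, 13 mitochondrial enzymes and 2 the scaffold proteins AIMP1 and AIMP2. Gars1 and Kars1, whose products serve both compartments, were counted with the cytosolic enzymes. The 4 others did not meet this rule and were not counted as members. The design had 3 arrays of cells that received nothing and 3 arrays of cells transfected with CREB3L1, all of the same line and with no other agent or genotype named. CREB3L1 is a membrane-bound transcription factor of the endoplasmic reticulum that is freed by cleavage. The labels leave unsaid the species of the construct, the vector, the time after transfection and whether the transfected cells were a clone or a pool. The probe set of Creb3l1 itself read 3.34, 3.38 and 3.37 in untransfected and 3.38, 3.42 and 3.36 in CREB3L1 arrays. These values lie below the background level of the array, a log2 value of 5, in every sample, so they check neither the labels nor the transfection.

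An aminoacyl-tRNA synthetase joins an amino acid to the tRNAs that carry its anticodons, and so supplies the ribosome with its substrates. Mammalian cells keep separate sets of these enzymes, mostly encoded by different nuclear genes, for the cytosol and for the mitochondria, where the symbols of the second set end in 2. The enzymes fall into class I and class II by the fold of the catalytic domain, and several cytosolic ones sit in a multi-synthetase complex held together by AIMP1, AIMP2 and EEF1E1. When amino acids run short, uncharged tRNA activates the kinase GCN2, which leads to translation of the transcription factor ATF4. Many cytosolic synthetase genes are known targets of ATF4, which binds a C/EBP-ATF response element in their promoters.

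Values are log2 expression values, and a difference is CREB3L1 minus untransfected with its standard error, tested with limma and Benjamini-Hochberg adjustment over all 31042 probe sets. A gene with several probe sets was represented by the brightest. The array of CREB3L1 replicate 3 stood apart from the other 5. Its correlation with them across probe sets was 0.98423 to 0.98850, against 0.99579 to 0.99939 among the others, and for Gapdh its 3' control probe set lay 4.77 above the 5' one, where the others had -0.16 to -0.10. Values without this array are therefore given beside those with all arrays. Of 15 epithelial markers, Krt5, Krt14 and Krt8 were above background and 12, among them Epcam and Cdh1, were not. Above background were also 1 of 9 fibroblast markers (Col3a1) and 1 of 8 leukocyte markers (Csf1r), with none of 7 endothelial and 6 adipocyte markers. None of these marker genes passed the test (limma), and 2 had an unadjusted p below 0.05, as did 1996 of all 14217 genes.

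Among the cytosolic enzymes, 17 of 19 had a lower mean in CREB3L1 cells, as did 3775 of the 7714 genes above background. Past the test, 1 of the 19 fell, the methionine enzyme gene Mars1, and 0 rose. The median difference of the 19 was -0.27, against 0.0056 over the 7714 genes above background, of which 2.61% fell and 1.02% rose. Without CREB3L1 replicate 3, 6 of the 19 fell and 0 rose, with a median of -0.22. In that fit 6.46% of the genes above background fell and 3.59% rose. The groups did not overlap for 9 cytosolic genes that were lower in CREB3L1 arrays and for 1 that was higher, against 16.5% and 14.7% of all genes above background. In RNA of whole cultures, less transcript per cell and fewer cells with the transcript cannot be told apart. Separate cultures are not named in the labels, so each p-value reflects only how these samples spread, which may be technical.

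Mars1 encodes the methionyl-tRNA synthetase, which also charges the initiator tRNA. It stood at 12.43, 12.38 and 12.41 in the untransfected arrays and at 11.87, 11.88 and 11.69 in the CREB3L1 arrays. Every CREB3L1 value lay below every untransfected value, with replicate 3 the lowest. The difference was -0.60 ± 0.06, which is 1.51-fold lower (adjusted p = 0.0173), and it was -0.54 ± 0.03 without CREB3L1 replicate 3 (adjusted p = 0.00375). The call was lost when any of the other 5 arrays was left out, with adjusted p from 0.0656 to 0.0965 and differences from -0.63 to -0.59. It was also lost in an ordinary test without moderation (0.102), and when both Mars1 probe sets were averaged (0.660).

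Lars1, the gene of the leucine enzyme, gave 12.09, 11.91 and 11.95 in untransfected arrays. In CREB3L1 arrays it gave 11.30, 11.27 and 11.55. The groups were apart, and the CREB3L1 replicate 3 value was the nearest to the untransfected ones. The difference of -0.61 ± 0.10 did not pass the test (adjusted p = 0.0646), whereas -0.70 ± 0.07 without replicate 3 did (0.0102). Aars1, which encodes the alanine enzyme, read 12.91, 12.77 and 13.01 in untransfected cells and 12.38, 12.48 and 12.41 in CREB3L1 cells. All 3 CREB3L1 arrays of Aars1 lay below the untransfected ones, with replicate 3 between the other CREB3L1 arrays. Its difference was -0.48 ± 0.07 (adjusted p = 0.0528), and -0.47 ± 0.08 without replicate 3 (0.0483).

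A further 3 genes did not pass with equal weight on all arrays, but passed without CREB3L1 replicate 3. They also passed in limma with array weights (adjusted p = 0.0122 for Sars1, 0.0474 for Wars1 and 0.0198 for Cars1). These weights were 0.17 for CREB3L1 replicate 3, against 0.869 and 2.77 for CREB3L1 replicates 1 and 2. The weighted fit therefore leans little on replicate 3 and is no separate check of the fit without it. Sars1, which encodes the serine enzyme, was at 12.53, 12.47 and 12.52 in untransfected arrays and at 12.06, 12.07 and 12.42 in CREB3L1 arrays. Its replicate 3 value lay much closer to the untransfected level than the other CREB3L1 arrays did, though still below it. The difference was -0.32 ± 0.11 with all arrays (adjusted p = 0.377) and -0.44 ± 0.04 without that array (0.00763). Wars1, which encodes the tryptophan enzyme, showed 10.12, 9.98 and 10.14 against 9.66, 9.72 and 10.05. Here replicate 3 fell within the untransfected range. Its difference was -0.27 ± 0.12 (adjusted p = 0.580), or -0.39 ± 0.06 without replicate 3 (0.0364). Cars1, the gene of the cysteine enzyme, had 11.45, 11.40 and 11.55 in untransfected and 11.13, 11.05 and 11.26 in CREB3L1 arrays, with no overlap. Its difference went from -0.32 ± 0.07 (adjusted p = 0.152) to -0.38 ± 0.06 (0.0360).

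**Figure D1:**
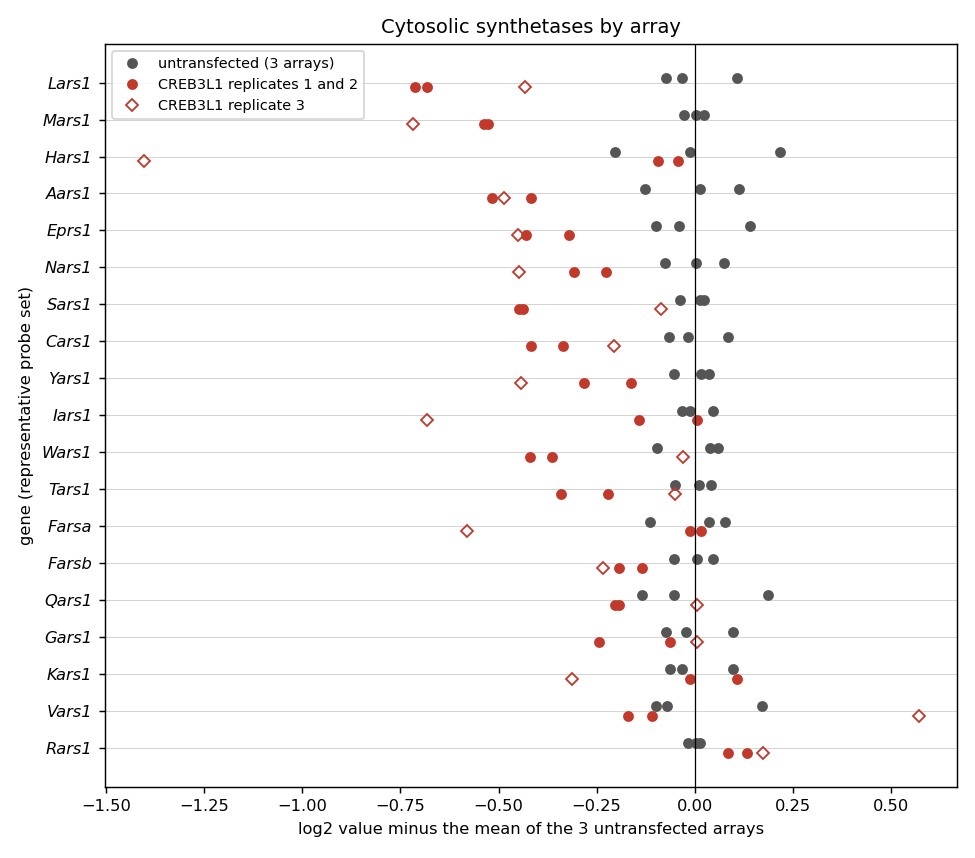
Log2 value of each cytosolic synthetase gene in each array minus the mean of its 3 untransfected arrays, with untransfected arrays as grey dots, CREB3L1 replicates 1 and 2 as red dots and CREB3L1 replicate 3 as open diamonds. In 9 of the 19 genes all 3 CREB3L1 values lie below all untransfected ones, as in 16.5% of all genes above background. In Hars1, Iars1, Farsa and Vars1 replicate 3 lies far from the other CREB3L1 arrays.

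Several other cytosolic genes had non-overlapping lower values without passing the test with equal weight on all arrays or without CREB3L1 replicate 3. The bifunctional glutamate and proline enzyme gene Eprs1 gave 13.52, 13.58 and 13.76 against 13.19, 13.30 and 13.17, a difference of -0.40 ± 0.08 (adjusted p = 0.109). Nars1, for the asparagine enzyme, gave 13.64, 13.71 and 13.56 against 13.33, 13.41 and 13.19, or -0.33 ± 0.07 (adjusted p = 0.153). Yars1, for the tyrosine enzyme, gave 13.08, 13.01 and 13.10 against 12.78, 12.90 and 12.62, or -0.30 ± 0.08 (adjusted p = 0.235). All of these differences are under 0.5 on the log2 scale. Without CREB3L1 replicate 3 the adjusted p of these genes was 0.0999, 0.0892 and 0.112. With array weights in limma Eprs1 passed (adjusted p = 0.0493), and Nars1 and Yars1 did not (0.069 and 0.119). Farsb, the beta subunit of the phenylalanine enzyme, was at -0.19 ± 0.04 (0.186) with separate groups, while Farsa, its alpha subunit, had overlapping groups at -0.19 ± 0.18. Without replicate 3 the differences were -0.16 ± 0.05 for Farsb and 0.0041 ± 0.06 for Farsa.

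The remaining cytosolic genes had overlapping groups or lay higher. Rars1, the arginine enzyme gene, was at 12.48, 12.49 and 12.46 in untransfected arrays and 12.56, 12.61 and 12.65 in CREB3L1 arrays. It was the only cytosolic member whose CREB3L1 values were all above the untransfected ones, at 0.13 ± 0.04 (adjusted p = 0.254), and at 0.11 ± 0.04 without replicate 3 (0.248). Tars1, for threonine, gave -0.20 ± 0.08 with all arrays (adjusted p = 0.521) and -0.28 ± 0.05 without replicate 3 (0.0623). The dual-compartment genes Gars1 (glycine) and Kars1 (lysine) gave -0.10 ± 0.08 and -0.07 ± 0.12, with 95% intervals of -0.31 to 0.11 and -0.37 to 0.23. Without replicate 3 Gars1 was at -0.15 ± 0.08, and Kars1 changed sign to 0.05 ± 0.07, with neither passing. Qars1, for glutamine, gave -0.13 ± 0.10 (95% interval -0.39 to 0.14) and -0.20 ± 0.10 without replicate 3. Hars1, for histidine, Iars1, for isoleucine, and Vars1, for valine, had wide intervals, -1.52 to 0.49, -0.73 to 0.18 and -0.46 to 0.65. In these 3 genes CREB3L1 replicate 3 lay -1.33, -0.61 and 0.71 from the mean of the other CREB3L1 arrays, and without it the differences were -0.07, -0.07 and -0.14.

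**Figure D2:**
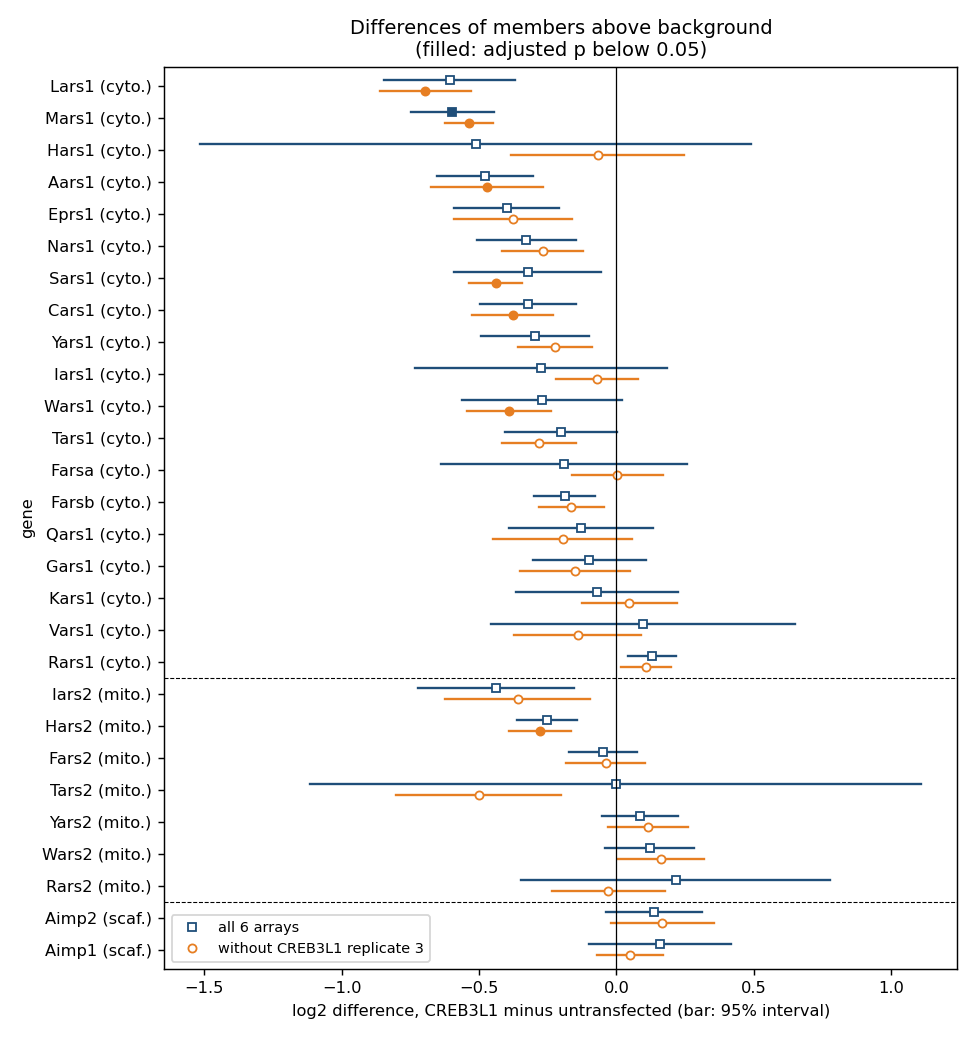
Log2 difference (CREB3L1 minus untransfected) with its 95% interval for the 28 members above background, with all 6 arrays (blue squares) and without CREB3L1 replicate 3 (orange circles); filled symbols passed the test. Mars1 alone is filled with all arrays, and Mars1, Lars1, Aars1, Sars1, Cars1, Wars1 and the mitochondrial Hars2 are filled without replicate 3.

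The cytosolic genes were next divided by what is known of them. Of 12 measured genes that belong to the known ATF4 targets (Aars1, Cars1, Eprs1, Gars1, Iars1, Lars1, Mars1, Nars1, Sars1, Tars1, Wars1 and Yars1), all 12 had a negative difference, with a median of -0.32 and a range of -0.61 to -0.10. Over the 7714 genes above background, 3775 had a negative difference with all arrays and 4028 without CREB3L1 replicate 3. With all arrays 1 of the 12 fell, where 2.61% of all genes above background did. An unadjusted p below 0.05 (limma) was found for 8 of the 12 and for 1996 of all 14217 genes. All 12 were above background, whereas 6503 of the 14217 were below it. When CREB3L1 replicate 3 was left out, 6 fell, where 6.46% of all genes did. The other 7 (Farsa, Farsb, Hars1, Kars1, Qars1, Rars1 and Vars1) had a median of -0.13 and a range of -0.51 to 0.13, with 0 falling in either fit and 2 at an unadjusted p below 0.05 with all arrays. Without replicate 3 the medians were -0.38 and -0.07, and the range of the 7 was -0.20 to 0.11. The division was drawn up with earlier results of these data known, so it is a description and was given no test. By class, the medians were -0.27 for 9 class I and -0.20 for 9 class II genes, with Eprs1 holding both kinds of enzyme. For the multi-synthetase complex they were -0.27 for its 7 measured enzymes and -0.28 for the 12 other cytosolic ones. Without replicate 3 these medians were -0.22 and -0.16 by class, and -0.20 and -0.25 for the complex and the others.

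Promoter windows of RefSeq (rat build GRCr8), each 300 bases long with 250 before and 50 after an annotated transcript start, were found for 32 of the 34 members and not for Gars1 and Rars1. The core of the C/EBP-ATF element was searched as TGATGNAA on either strand, which reads TTNCATCA where it lies on the opposite strand. It occurred in 7 of 17 cytosolic windows, 0 of 13 mitochondrial windows and 0 of 2 scaffold windows. Over all 33469 windows 3.98% held it, and over the 13243 windows of genes on the array 2.24%. The 7 genes were Aars1, Cars1, Iars1, Mars1, Nars1, Tars1 and Yars1, all among the known ATF4 targets. In each of them the variable base made the match TGATGCAA, or TTGCATCA on the opposite strand. The stretches that hold the match are shown because the letters recur while the surrounding sequence differs. Capitals mark the match, each stretch is written 5' to 3' on the strand of the gene, and no more than 30 bases are given where the match lies after the start.
Aars1, chr19:55908344-55908403, plus strand: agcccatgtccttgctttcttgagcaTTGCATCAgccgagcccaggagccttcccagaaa
Iars1, chr17:15193653-15193712, minus strand: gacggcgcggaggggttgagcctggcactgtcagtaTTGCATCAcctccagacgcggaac
Mars1, chr7:65023754-65023813, minus strand: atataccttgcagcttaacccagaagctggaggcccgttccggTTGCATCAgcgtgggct
Nars1, chr18:60275783-60275842, minus strand: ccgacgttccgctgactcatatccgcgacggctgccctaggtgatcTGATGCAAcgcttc
Tars1, chr2:62114803-62114862, minus strand: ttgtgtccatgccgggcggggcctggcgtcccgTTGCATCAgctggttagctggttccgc
Cars1, chr1:208225334-208225363, minus strand: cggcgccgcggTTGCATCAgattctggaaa
Yars1, chr5:146820183-146820212, plus strand: cggagctacgagctcagcTGATGCAAcctg

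In Iars1, Mars1, Nars1 and Tars1 the match began 24, 17, 14 and 27 bases before the start, and in Aars1 112 bases before it. In Cars1 and Yars1 it began at base 18 and base 39 of the transcript. Aars1 held a second match, TTTCATCA, at base 10 of the transcript. For comparison, the 60 bases before the start of Kars1 and Vars1, whose windows hold no match, are the following.
Kars1, chr19:56886084-56886143, minus strand: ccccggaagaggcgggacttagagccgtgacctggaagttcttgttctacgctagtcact
Vars1, chr20:3824952-3825011, minus strand: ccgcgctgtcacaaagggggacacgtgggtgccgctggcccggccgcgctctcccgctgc

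The 7 genes with the match had a median difference of -0.32 (range -0.60 to -0.20) and the 10 cytosolic genes with a window and no match -0.23 (range -0.61 to 0.10). Without CREB3L1 replicate 3 the medians were -0.28 and -0.18. In that fit 3 of the 7 and 3 of the 10 fell, against 6.46% of all genes above background. Lars1, Sars1 and Wars1 fell without that replicate and hold no match in these 300 bases, which says nothing of sequence outside the window. The letters TGACGT, the ACGT core shared by elements of the CREB and ATF families, occurred on either strand in 3 of 17 cytosolic windows (Eprs1, Hars1 and Qars1) and 4 of 13 mitochondrial windows (Aars2, Ears2, Nars2 and Wars2). Of all windows 7.94% held them, and of windows of genes on the array 10.3%. Of these 7 members Aars2, Ears2 and Nars2 were below background and could not be read, and the other 4 did not pass the test with all arrays or without replicate 3. No TGACGT match overlapped a TGATGNAA match, since no member window held both.

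**Figure D3:**
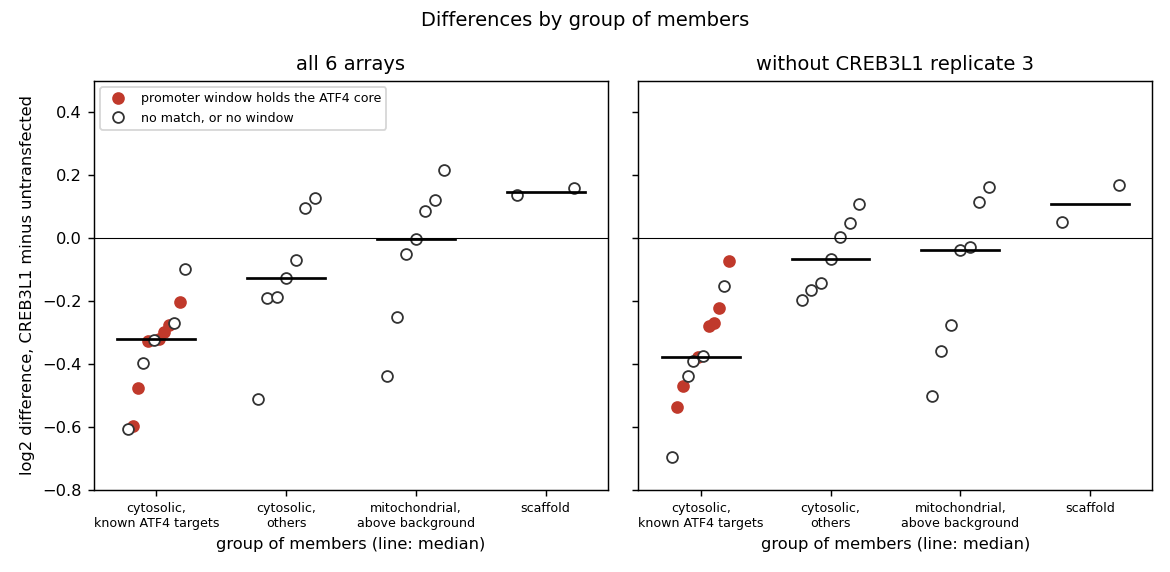
Log2 difference of each member, by group, with all 6 arrays (left) and without CREB3L1 replicate 3 (right); horizontal lines are medians and red dots are genes whose promoter window holds the ATF4 core TGATGNAA. The 12 known ATF4 targets all lie below 0 in both panels, with medians of -0.32 and -0.38. Of the 7 other cytosolic genes, 5 lie below 0 on the left and 4 on the right, with medians of -0.13 and -0.07. The mitochondrial genes lie on both sides.

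Different probe sets of the same gene gave different values on CREB3L1 replicate 3. Of 38 member probe sets above background, 7 differed on that array by more than 1 on the log2 scale from the mean of CREB3L1 replicates 1 and 2, and 6 of the 7 were lower. Of these 7, 5 were not the representative of their gene. The second Gars1 probe set read 8.98, 9.86 and 2.35 in the CREB3L1 arrays, and the second Hars1 probe set 9.95, 10.19 and 2.25. On replicate 3 both dropped far below every other array while the brightest Gars1 probe set, at 13.31, did not. The second Mars1 probe set gave 6.56, 6.92 and 5.58 in untransfected and 6.43, 6.39 and 3.94 in CREB3L1 arrays, so the fall seen with the brighter probe set was not seen in it without replicate 3 (0.06 ± 0.39). A second Cars1 probe set gave -0.33 ± 0.05 without replicate 3 (adjusted p = 0.0314), close to the first, and a second Eprs1 probe set -0.42 ± 0.10 (0.102). A further probe set of each gene above background had overlapping groups and lay more than 2 lower on replicate 3 than on the other CREB3L1 arrays. Without that array it gave -0.28 ± 0.21 for Cars1 (adjusted p = 0.787) and -0.21 ± 0.13 for Eprs1 (0.642). The second Lars1 probe set, near background at 5.14 to 5.46, gave -0.16 ± 0.06 with all arrays (adjusted p = 0.477) and separate groups. The part of RNA quality in these gaps was not tested.

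**Figure D4:**
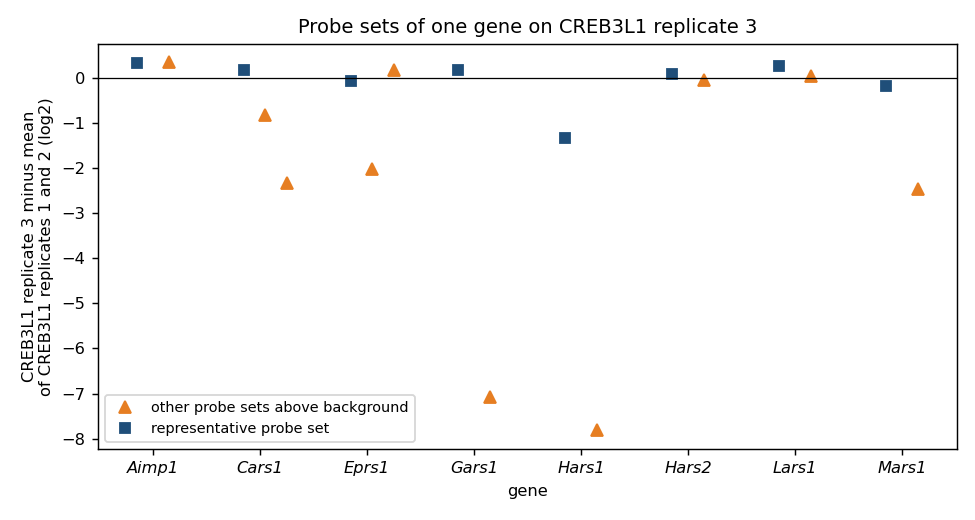
CREB3L1 replicate 3 minus the mean of CREB3L1 replicates 1 and 2, in log2 units, for every probe set above background of the 8 members with 2 or more such probe sets; squares are representatives and triangles the other probe sets. The representatives lie between -1.33 and 0.33, while other probe sets of Gars1 and Hars1 lie at -7.07 and -7.82.

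Of the mitochondrial enzymes, 0 of 13 fell or rose with all arrays (limma), and 0 passed the adjusted threshold in the ordinary test. In limma 2 of the 13 had an unadjusted p below 0.05, as did 1996 of all 14217 genes. The median difference of the 13 was 0.00096. Aars2, Cars2, Ears2, Nars2, Sars2 and Vars2 were below background in both groups, so no difference could be read for them, and the 7 others had a median of -0.0023. Without CREB3L1 replicate 3, 1 of the 13 fell, which was Hars2, and the median of the 7 was -0.04. Over all genes above background 6.46% fell in that fit.

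Hars2, the mitochondrial histidine enzyme gene, read 10.29, 10.30 and 10.36 in untransfected arrays and 9.998, 10.08 and 10.12 in CREB3L1 arrays. The groups were apart, replicate 3 included. The difference was -0.25 ± 0.04 (adjusted p = 0.0872), and -0.28 ± 0.04 without replicate 3 (0.0415), or 1.19-fold lower with all arrays. A second Hars2 probe set gave 8.77, 8.75 and 8.84 against 8.43, 8.55 and 8.43, again without overlap, at -0.32 ± 0.05 (adjusted p = 0.0598). The mean of both probe sets passed the test with all arrays (-0.28, adjusted p = 0.0392). Iars2, for isoleucine, gave 8.26, 8.07 and 8.38 against 7.80, 7.95 and 7.64, also apart, at -0.44 ± 0.11 (adjusted p = 0.224), or -0.36 ± 0.10 without replicate 3 (0.179).

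The other mitochondrial genes above background had smaller or less certain differences. Tars2, for threonine, read 9.19, 9.16 and 9.52 against 8.79, 8.78 and 10.28. Its replicate 3 lay above all arrays and the other CREB3L1 arrays below all untransfected ones, so the difference was -0.0023 ± 0.44 with all arrays and -0.50 ± 0.12 without replicate 3 (adjusted p = 0.111). Rars2, for arginine, gave 0.22 ± 0.22, with replicate 3 at 9.45 against 8.62 to 8.84 in the other 5 arrays, and without replicate 3 its sign turned, at -0.03 ± 0.08. Fars2 (phenylalanine), Yars2 (tyrosine) and Wars2 (tryptophan) gave -0.05, 0.09 and 0.12, with 95% intervals of -0.17 to 0.08, -0.05 to 0.22 and -0.04 to 0.28. Without replicate 3 they gave -0.04, 0.12 and 0.16. Wars2 read 5.73, 5.70 and 5.68 against 5.78, 5.95 and 5.74, close to background, and was the only one of the 7 whose CREB3L1 arrays all lay higher. In 2 of the 7, Hars2 and Iars2, they all lay lower. Over all genes above background, the groups were apart and higher for 14.7% and apart and lower for 16.5%. The intervals of Fars2, Yars2 and Wars2 leave out a fall of the size seen in Mars1.

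**Figure D5:**
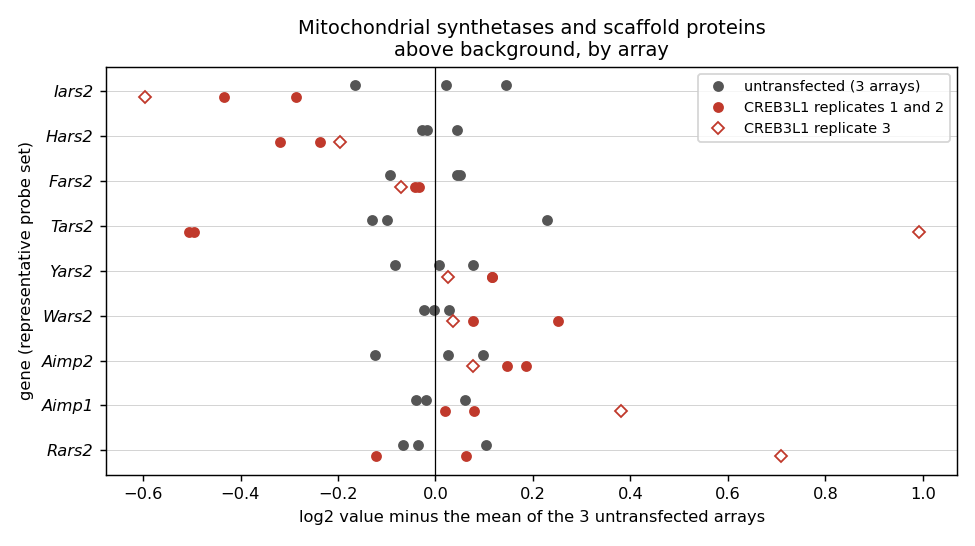
Log2 value minus the mean of the 3 untransfected arrays for the 7 mitochondrial synthetase genes above background and for Aimp1 and Aimp2, with symbols for untransfected arrays (grey), CREB3L1 replicates 1 and 2 (red dots) and CREB3L1 replicate 3 (open diamonds). Hars2 and Iars2 have all CREB3L1 arrays below the untransfected ones, and in Tars2 and Rars2 replicate 3 lies above every other array.

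The scaffold genes did not pass the test in either fit, and both differences were positive. Aimp1 read 13.16, 13.06 and 13.08 in untransfected arrays and 13.18, 13.12 and 13.48 in CREB3L1 arrays, with overlap and a difference of 0.16 ± 0.10 (adjusted p = 0.908). Its second probe set gave 0.19 ± 0.12 (0.912). With replicate 3 left out these differences were smaller, at 0.05 ± 0.05 and 0.08 ± 0.09. Aimp2 read 12.85, 12.63 and 12.78 against 12.94, 12.90 and 12.83, at 0.14 ± 0.07 (adjusted p = 0.723), and 0.17 ± 0.07 without replicate 3 (0.424). Eef1e1, the third scaffold gene and no member of the list, gave 0.12 ± 0.05 (adjusted p = 0.498). The 95% intervals of Aimp1 and Aimp2, -0.10 to 0.42 and -0.04 to 0.31, leave out falls of the size of those in Mars1 and Lars1.

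Other genes of the path from tRNA to protein gave few calls. Over all 14217 genes, 1996 had an unadjusted p below 0.05 (limma) with all arrays and 2913 without CREB3L1 replicate 3. The unadjusted counts that follow are to be read beside these. Past the adjusted threshold, 2.61% of all genes above background fell and 1.02% rose with all arrays. Without replicate 3, 6.46% fell and 3.59% rose. The single calls that follow are to be read beside these shares. Of 17 measured partners of tRNA charging (elongation factor 1 subunits, deacylases, amidotransferase subunits and pyrophosphatases), 0 passed and 3 had an unadjusted p below 0.05, with a median of 0.03. Leaving out CREB3L1 replicate 3, 0 passed, 7 had an unadjusted p below 0.05 and the median was -0.03. Among these Dtd1, a deacylase that removes D-amino acids from tRNA, and Pstk, a kinase of selenocysteine synthesis, had the smallest p, at -0.27 ± 0.08 and 0.21 ± 0.06 (adjusted p = 0.275 and 0.315). Of 55 genes of tRNA processing and modification 0 passed, with 6 at an unadjusted p below 0.05 and a median of 0.02. Without replicate 3, 1 rose, the ribonuclease P subunit gene Pop7 (0.41 ± 0.05, adjusted p = 0.0204), 17 had an unadjusted p below 0.05 and the median was -0.0051. With all arrays the pseudouridine synthase gene Trub2 (-0.38 ± 0.06, adjusted p = 0.0665) and the methyltransferase gene Trmt61a (0.30 ± 0.07, 0.206) came nearest. Of 36 cytosolic translation factors 0 passed, 4 had an unadjusted p below 0.05 and the median was -0.07, with Eif6 (0.30 ± 0.06, adjusted p = 0.141) and Gspt1 (0.22 ± 0.05, 0.219) nearest. Without replicate 3 the median turned positive, at 0.04, 13 had an unadjusted p below 0.05 and 1 fell, the initiation factor gene Eif1ax (-0.29 ± 0.04, adjusted p = 0.0288). On the mitochondrial side 1 of 15 translation factors rose, the release factor gene Mtrf1l, by 0.65 ± 0.08 (adjusted p = 0.0316), and by 0.60 without CREB3L1 replicate 3 (0.0218). Of 73 mitochondrial ribosomal protein genes 0 passed, 10 had an unadjusted p below 0.05 and the median was -0.0073. Without replicate 3, 0 passed, 12 had an unadjusted p below 0.05 and the median was -0.04.

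The amino acid response list held the pathway of GCN2 and ATF4 with its non-synthetase targets. It was wider than that pathway and also held Eif2ak1, Eif2ak2, Eif2ak3 and Ppp1r15b. The list had a median of -0.42 over 38 measured genes. Of these, 5 fell and 0 rose, against 2.61% and 1.02% of all genes above background. Without CREB3L1 replicate 3 the median was -0.32, and 14 fell and 1 (Ppp1r15a) rose, against 6.46% and 3.59%. Among the 5 that passed with all arrays, the largest falls were those of the cystine transporter gene Slc7a11 (-1.32 ± 0.06, adjusted p = 0.00191) and of Chac1, which acts on glutathione (-1.19 ± 0.10, 0.00884). Ddit4, Trib3 and Nupr1 had larger differences that did not pass with all arrays (-1.92, -1.86 and -1.56) and fell without replicate 3 (-0.91, -1.32 and -1.26). Aldh18a1, of proline synthesis, fell by 0.52 ± 0.05 (adjusted p = 0.0127). The largest difference of a synthetase gene, -0.61 in Lars1, was about the size of that of the transporter gene Slc7a5 (-0.57 ± 0.06, adjusted p = 0.0170). Atf4 itself, singled out after its values were seen, read 14.81, 14.70 and 14.59 against 14.30, 14.34 and 13.74. Its groups did not overlap, at -0.58 ± 0.18 (adjusted p = 0.328), and without replicate 3 the difference was -0.39 (0.0582). The genes of this list and the synthetases come from the same 6 arrays, so their values are not independent of each other.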

How the data were processed

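Total RNA of 3 untransfected and 3 CREB3L1 samples was labelled with biotin (3' IVT Express, per the labels' protocols) and hybridised to Affymetrix 3' arrays. The deposited values are log2 expression values. The submitters' processing notes name RMA and Partek 6.6, which the authors used to make them. No source states the log base, which was read from the range of 0.27 to 17.2. Values were used as deposited.

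Of 31099 probe sets, 57 controls were set aside. Symbols came from GEO's platform annotation, and those of all members matched RefSeq (GRCr8). The groups were compared on 31042 probe sets with limma 3.58.1 in R 4.3.3 (lmFit, eBayes, two-sided, threshold 0.05). The fit was tested on simulated data. All 3 arrays per group entered, and their number limits the precision. There is no detection call, so a log2 value of 5 was taken as background. Members, gene lists, background level and motifs were chosen with earlier results of these data known.

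Every member was named by its brightest probe set, and other probe sets where they disagreed. From each further list, up to 4 genes past the threshold were named, or the 2 with the smallest p. Ddit4, Trib3, Nupr1, Ppp1r15a, Pop7, Eif1ax and Atf4 fall outside this rule and were named after their values were seen. Eef1e1 was named as a relative of the members. Alternatives were quantile normalisation, median centring, leaving out dim probe sets, a variance trend, robust and unmoderated tests, array weights, each array left out and averaging a gene's probe sets. Replicates were numbered in deposit order.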

Additional observations from a re-analysis of the deposited data

How the results depend on the processing

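No paired analysis was possible because the labels give no replicate numbers shared by the groups. The count of cytosolic synthetases that fell, 1 with all arrays, was 7 with array weights, 2 with each gene's probe sets averaged, 0 in the ordinary test without moderation, and 0 to 6 when an array was left out, where 6 was reached without CREB3L1 replicate 3 and 0 without any other. It stayed 1 with quantile normalisation, median centring, dim probe sets left out, a mean-variance trend and robust eBayes. The 7 genes with array weights were Mars1, Lars1, Aars1, Sars1, Cars1, Wars1 and Eprs1, in a fit that gave CREB3L1 replicate 3 a weight of 0.17. The count of mitochondrial synthetases that fell, 0 with all arrays, was 1 with array weights, 1 with averaged probe sets and 0 to 1 when an array was left out. In each case the gene was Hars2. No synthetase rose under any of these settings. The median of the cytosolic genes was -0.22 with array weights. That of all 13 mitochondrial genes ran from -0.037 to 0.071 when an array was left out, and was -0.054 with array weights. Of these 13, 6 were below background, so this spread is partly that of values that cannot be read. Over all probe sets, 299 fell and 132 rose. Array weights gave 952 and 600, the ordinary test 65 and 9, and leaving out an array 116 to 756 and 28 to 479. The mean-variance trend gave 79 that rose. Of the 34 members, 12 changed sign in at least 1 of the 14 alternatives, none of them a gene called in that alternative or with all arrays. The cause of these changes was not tested. Signal over background limits Aars2, Cars2, Ears2, Nars2, Sars2 and Vars2, which cannot be read here.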

Other observations

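Hars1 and Hars2 are neighbours on opposite strands, and their promoter windows share 243 bases. Hars2 had separate groups on both of its probe sets, at -0.25 and -0.32 with all arrays and -0.28 and -0.30 without CREB3L1 replicate 3. Hars1 had overlapping groups, at -0.51 ± 0.40 with all arrays and -0.07 ± 0.12 without CREB3L1 replicate 3. Iars2 and Eprs1 also lie close together in the RefSeq gene order of GRCr8, with 1 protein-coding gene between them, and both had separate groups, at -0.44 ± 0.11 and -0.40 ± 0.08. Neither passed the test with all arrays (adjusted p = 0.224 and 0.109). Separate groups with lower CREB3L1 values were found for 16.5% of all genes above background.

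Some probe sets lay outside the rule for members because their annotation has more than 1 entry, or because their gene is not on the list. A probe set annotated with 2 entries of Mars2, the mitochondrial methionine enzyme gene, read 10.55, 10.67 and 10.68 in untransfected and 10.63, 10.64 and 10.90 in CREB3L1 arrays, with overlapping groups. A probe set shared by Ears2, the mitochondrial glutamate enzyme gene, and Ears2l1 read 7.48, 7.46 and 7.40 against 7.55, 7.44 and 7.23, also overlapping. The probe set of Aimp1-ps3, a pseudogene that is not on the list, was below background, at 2.67 to 2.86.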
